A study of Mus musculus with 34 samples.

Results

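The genes described here are Runx1, Gadd45a, Krt8, Krt18, Gdf5 and Ncam1, 6 of the 23011 genes in the deposited count table, each matched by its symbol to 1 row. They were chosen by their counts in the soleus of 24-month-old mice after wheel running, where they were high in part of the libraries, so their values in that comparison are given as a description with no test. RNA was sequenced from 2 calf muscles of female mice, the slow soleus and the fast plantaris. Trained mice had 8 weeks of PoWeR, progressive weighted wheel running, in which the mouse runs voluntarily on a wheel carrying added weight, and the wheel was locked for 24 h before tissue was taken after an overnight fast. Controls were age-matched sedentary mice. The ages were 24 mo and 6 mo, and the labels name no transgene, deletion or drug in any group. The 34 libraries form 8 groups of muscle, age and training, with 5 libraries in each 24 mo sedentary group and 4 in each of the others.

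A muscle fibre that loses its nerve switches on genes that are silent or confined to the synapse in innervated muscle, among them acetylcholine receptor subunits, and several of the 6 genes are known from that state. Runx1 is a DNA-binding transcription factor induced by denervation that limits wasting of the fibre. Gadd45a is a small stress protein of the nucleus induced in denervated and wasting muscle. Krt8 and Krt18 encode the keratins that pair with each other in the intermediate filaments of simple epithelia. Gdf5 is a secreted ligand of the bone morphogenetic protein (BMP) family that acts against loss of mass in denervated muscle. Ncam1 is a neural cell adhesion molecule that spreads over the surface of denervated fibres and is also made by satellite cells, the muscle stem cells, and by Schwann cells of the nerve.

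On GRCm38 (mm10), Runx1 lies on chromosome 16 at 92601466 to 92826149, Gadd45a on chromosome 6 at 67035096 to 67037457 and Gdf5 on chromosome 2 at 155941023 to 155945367. Ncam1 lies on chromosome 9 at 49502136 to 49798925. These 4 genes are on the minus strand. Krt8 (chromosome 15, 101996698 to 102004482, minus strand) and Krt18 (chromosome 15, 102028180 to 102032027, plus strand) are neighbours. They are transcribed away from each other, their start sites are 23.7 kb apart, and 0 genes of the table lie between them. All 6 are annotated as protein-coding. Keratins such as Krt8 and Krt18 have processed pseudogenes, and how reads shared with them or lying on the other strand were counted is not given in the sources used here.

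Because 5 of the genes were high in the same 24 mo soleus libraries, their promoter sequences were set side by side. RefSeq promoters of GRCm38.p6, 250 bases before to 50 bases after a start, were at hand for 4 of the 6 genes: Runx1 (16:92826025-92826324, minus strand, the first of 2 starts), Gadd45a (6:67037358-67037657, minus strand), Krt8 (15:102004293-102004592, minus strand) and Krt18 (15:102027966-102028265, plus strand). Gdf5 and Ncam1 were not matched. Each is shown 5′ to 3′ along the gene, and capitals mark matches on either strand to the E-box CANNTG, the motif of myogenic factors, or to the Runx motif TGTGGT, which reads ACCACA on the other strand.
Runx1: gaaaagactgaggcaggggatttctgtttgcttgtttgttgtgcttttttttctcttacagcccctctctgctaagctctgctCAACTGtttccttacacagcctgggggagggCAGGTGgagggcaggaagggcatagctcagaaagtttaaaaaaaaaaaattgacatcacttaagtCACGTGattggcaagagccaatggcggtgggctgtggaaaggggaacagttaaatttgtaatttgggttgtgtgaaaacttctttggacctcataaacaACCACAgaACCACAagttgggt
Gadd45a: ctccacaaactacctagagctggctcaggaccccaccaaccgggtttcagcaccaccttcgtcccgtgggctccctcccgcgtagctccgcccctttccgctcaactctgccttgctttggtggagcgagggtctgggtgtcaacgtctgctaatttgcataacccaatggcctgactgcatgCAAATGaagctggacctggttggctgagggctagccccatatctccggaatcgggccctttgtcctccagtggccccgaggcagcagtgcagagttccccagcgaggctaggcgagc
Krt8: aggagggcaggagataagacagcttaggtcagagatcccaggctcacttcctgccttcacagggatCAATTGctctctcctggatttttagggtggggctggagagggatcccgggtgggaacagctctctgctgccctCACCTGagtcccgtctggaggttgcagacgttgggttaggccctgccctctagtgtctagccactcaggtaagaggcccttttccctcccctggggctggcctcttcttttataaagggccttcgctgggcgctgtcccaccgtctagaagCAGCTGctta
Krt18: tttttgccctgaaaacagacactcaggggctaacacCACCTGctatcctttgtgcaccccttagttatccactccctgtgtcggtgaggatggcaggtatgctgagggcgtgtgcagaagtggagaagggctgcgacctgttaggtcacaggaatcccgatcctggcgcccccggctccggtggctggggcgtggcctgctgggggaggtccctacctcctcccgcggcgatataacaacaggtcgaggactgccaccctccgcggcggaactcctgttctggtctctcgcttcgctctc

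The Runx1 promoter held 3 matches to CANNTG and 2 to TGTGGT, both of the latter past the start site. Krt8 held 3 E-box matches, the last of which is the form CAGCTG. Gadd45a and Krt18 held 1 match to CANNTG each. CANNTG occurs in 72.3% of the 32851 promoters of this length, CAGCTG in 16.3% and TGTGGT in 16.8%. The other letters searched, TGCGGT (6.45% of promoters), the AP-1 motif TGACTCA (5.2%) and the CRE motif TGACGTCA (1.79%), had no match in these 4 windows. The second Runx1 start (16:92697280-92697579) had no match to any of these motifs. A match describes letters in a window and no binding was measured.

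Total counts ran from 15237617 to 26250434 per library. Levels are CPM, read counts scaled to a common library size, with each library total first multiplied by its TMM factor. Myh7, the slow myosin heavy chain, was at 59.8 to 1765 CPM in the 24 mo plantaris libraries and at 16140 CPM or more in every other library, the 8 labelled 6 mo plantaris among them. In those 8 libraries Myh4, the fastest heavy chain, was at 14.2 to 41.8 CPM, against 13060 CPM or more in 24 mo plantaris, so their profile goes against the plantaris label, and they are called the libraries labelled 6 mo plantaris throughout. The titles of the 24 mo plantaris libraries say soleus, but their source label says plantaris and their myosins are those of a fast muscle. In whole muscle, fewer cells of a type and less RNA per cell cannot be told apart. Whether each library of a group is its own mouse is not stated, and p-values therefore reflect only the spread of the libraries at hand, which may be technical. In the text, a called gene has an adjusted p under 0.05 in edgeR's quasi-likelihood test with Benjamini-Hochberg adjustment over all genes tested.

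In 24 mo soleus, Runx1, Gadd45a, Krt8, Krt18 and Gdf5 were high in 2 of the 4 PoWeR libraries (numbers 10 and 12), intermediate in number 15, and near the sedentary level in number 14. PoWeR 10, 12 and 15 were each above all 5 sedentary libraries for 6 of 6 genes, and PoWeR 14 was above them for 1, Krt8. Of all genes tested in this muscle, 22.6% were above all 5 sedentary libraries in PoWeR 10, 20.5% in PoWeR 12, 21% in PoWeR 14 and 19.0% in PoWeR 15, and since the genes were chosen here nothing is read from their own count. The plot of levels by library shows this spread beside the other groups.

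**Figure D1:**
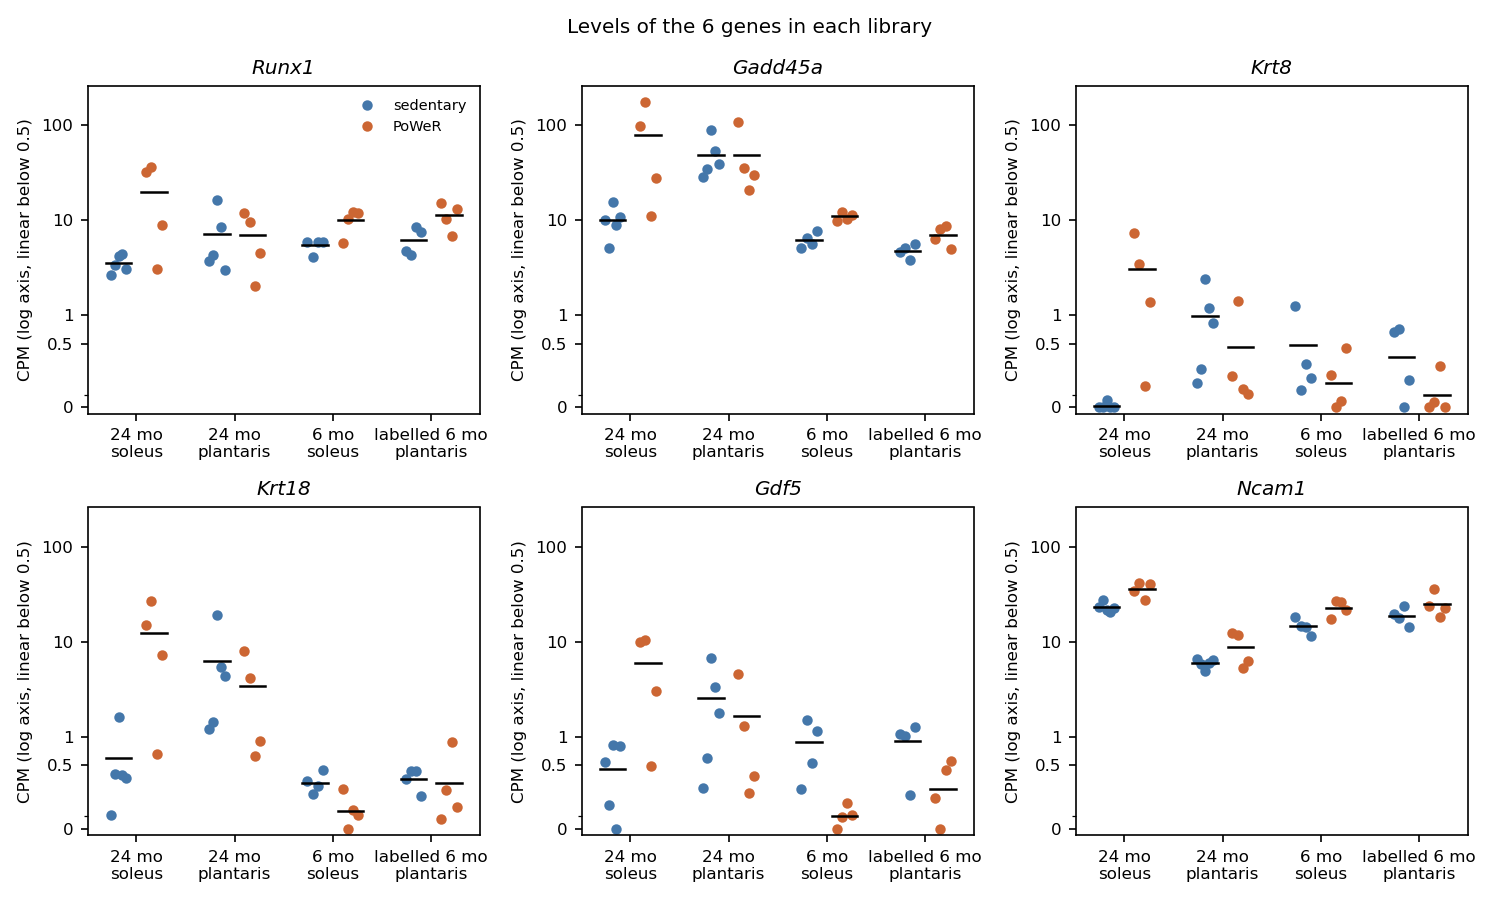
CPM of each gene in every library (1 point each) for sedentary (blue) and PoWeR (orange) groups of 4 or 5 libraries, with the group mean as a line, on a log axis that is linear below 0.5 CPM. In 24 mo soleus the PoWeR points of Runx1 run from 3.08 to 36.1 CPM, and Gadd45a is higher in both 24 mo plantaris groups than in any 6 mo group.

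Runx1, the transcription factor, had 32.4, 36.1, 3.08 and 8.86 CPM in 24 mo soleus PoWeR libraries 10, 12, 14 and 15. In sedentary libraries 12 to 16 it had 2.68, 3.42, 4.25, 4.44 and 3.07 CPM. The first 2 trained libraries stood about as far above the third trained library as above the controls, and the groups overlapped through PoWeR 14. On the log2 scale PoWeR minus sedentary was 2.49 ± 0.52 (fold change and SE from edgeR), from group means of 20.1 ± 16.6 (SD, n = 4) and 3.57 ± 0.756 CPM (SD, n = 5).

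Gadd45a, the stress protein, had 99.7, 176, 11.2 and 28.1 CPM in PoWeR 10, 12, 14 and 15, and 10.2, 5.1, 15.5, 8.89 and 10.8 CPM in sedentary 12 to 16. Here PoWeR 12 was the highest library and PoWeR 14 lay inside the sedentary range. Its log2 fold change was 2.96 ± 0.58. The highest PoWeR library had 15.8 times the level of the lowest, while the sedentary libraries differed by 3.03 times.

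Of the keratin pair, Krt18 had 15.1, 26.9, 0.66 and 7.32 CPM in PoWeR 10, 12, 14 and 15. The sedentary libraries had 0.109, 0.435, 1.63, 0.42 and 0.398 CPM. PoWeR 14 fell between sedentary 14 and the other controls, so the groups overlapped, and the log2 fold change was 4.35 ± 0.78. Krt8 had 7.33, 3.5, 0.165 and 1.38 CPM in the same PoWeR libraries, and 1 count (0.0544 CPM) in sedentary 14 with 0 counts in the other 4 controls. It was the 1 gene of the 6 whose groups did not overlap. Summed over libraries, 226 counts with PoWeR, 198 of them from PoWeR 10 and 12, stood against 1 in the controls.

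Gdf5, the BMP-family ligand, had 9.96, 10.5, 0.495 and 3.03 CPM in PoWeR 10, 12, 14 and 15. Its sedentary values were 0.547, 0.186, 0.817, 0 and 0.797 CPM, and PoWeR 14 lay among them. Its log2 fold change was 3.63 ± 0.76. Ncam1, the adhesion molecule, had a narrower spread than the other 5. It had 34.4, 41.3, 27.3 and 40.5 CPM in the PoWeR libraries against 23.5, 27.9, 21.8, 20.4 and 22.5 CPM, and only sedentary 13 exceeded PoWeR 14. Its log2 fold change was 0.63 ± 0.15, and its highest PoWeR library had 1.51 times the level of the lowest.

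Across all genes tested in 24 mo soleus, edgeR called 0.469% higher and 0.388% lower in PoWeR, and 2.81% had every PoWeR library above every sedentary one, with 3.96% below. Since the genes were chosen on this contrast, nothing is read from their own count beside these shares. Without PoWeR 10 and 12 together, the log2 fold changes were 0.75 for Runx1, 0.97 for Gadd45a, 2.72 for Krt18 and 1.89 for Gdf5. The mean of Krt8 over the 4 PoWeR libraries was 3.09 CPM and ran from 1.68 to 4.07 CPM as each was left out.

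Per kilobase of exon, which allows levels of different genes to be compared, Gadd45a was the most abundant in 24 mo soleus PoWeR at a mean of 44.6 CPM per kb. Krt18 followed at 8.68, Ncam1 at 4.14, Gdf5 at 2.58, Runx1 at 1.67 and Krt8 at 1.58 CPM per kb. In the sedentary group of the same muscle and age the order differed, with Gadd45a at 5.72 and Ncam1 at 2.68 ahead of Krt18 at 0.417, Runx1 at 0.297, Gdf5 at 0.202 and Krt8 at 0.00556 CPM per kb. The mean level of Krt18 per kb was thus above that of its partner Krt8 in both groups.

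24 mo plantaris was not used to choose the genes and gave a test of the same training difference at the same age. None of the 6 genes was called there by edgeR, DESeq2 or limma, and 1, Ncam1, had an unadjusted p under 0.05 in edgeR. The shares of all genes called by edgeR were 0.0131% higher and 0.0131% lower, DESeq2 called 0.807% and limma 0.0393% in either direction, and 9.86% had an unadjusted p under 0.05 in edgeR. A complete separation of the groups was seen for 0 of the 6 genes, against 1.58% of all genes with PoWeR above and 1.28% with PoWeR below. Over the whole table of this muscle and age, edgeR called 4 genes.

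Runx1 had 11.9, 9.51, 2.03 and 4.52 CPM in 24 mo plantaris PoWeR 10, 12, 14 and 15, and 3.76, 4.27, 16.2, 8.61 and 2.98 CPM in sedentary 12 to 16. The highest library of all was a control, sedentary 14. On balance the groups differed by a log2 fold change of -0.02 ± 0.53 (edgeR, Benjamini-Hochberg adjusted p = 0.994). Gadd45a had 109.8, 35.6, 20.9 and 30.1 CPM against 28.5, 35.1, 88.9, 53.4 and 39.3 CPM, with PoWeR 10 and sedentary 14 standing above the rest. Its log2 fold change was 0.01 ± 0.43 (edgeR, adjusted p = 0.999).

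Krt18 was highest in the control sedentary 14 (19.2 CPM), and its 4 other controls had 1.21, 1.44, 5.41 and 4.38 CPM. In PoWeR 10, 12, 14 and 15 it had 8.01, 4.13, 0.63 and 0.893 CPM, for a log2 fold change of -0.88 ± 0.82 (edgeR, adjusted p = 0.764). Both groups thus covered a wide, shared range. Krt8 had 0.243, 1.42, 0.14 and 0.105 CPM in PoWeR against 0.191, 0.301, 2.4, 1.2 and 0.825 CPM, with a log2 fold change of -1.0 ± 0.985 (edgeR, adjusted p = 0.778). Unlike in 24 mo soleus, every sedentary plantaris library of that age held Krt8 reads, from 3 counts in sedentary 12 to 40 in sedentary 14.

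Gdf5 had 4.61, 1.3, 0.28 and 0.42 CPM in PoWeR 10, 12, 14 and 15 and 0.319, 0.601, 6.71, 3.34 and 1.78 CPM in sedentary 12 to 16. Again sedentary 14 was the highest of the 9 libraries, and the log2 fold change was -0.62 ± 0.87 (edgeR, adjusted p = 0.863). Ncam1 had 12.4, 11.7, 5.25 and 6.3 CPM in PoWeR against 6.63, 5.89, 4.97, 5.94 and 6.41 CPM. PoWeR 10 and 12 exceeded every control and PoWeR 14 and 15 did not. The difference was 0.60 ± 0.25 on the log2 scale (edgeR, adjusted p = 0.422).

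In PoWeR 12 of 24 mo plantaris, where Ncam1 was 11.7 CPM, the summed level of 8 Schwann cell markers was 193.6 CPM, against 14.2 to 33.7 CPM in the other 8 libraries of that muscle and age. In PoWeR 10, where Ncam1 was 12.4 CPM, that sum was 32.1 CPM. PoWeR 12 also stood apart in 4 adipocyte markers (227.6 CPM against 4.63 to 41.5 CPM in the other 8 libraries), 7 macrophage markers (135 against 34.2 to 64.7 CPM) and 3 fibro-adipogenic markers (141.4 against 23.9 to 87.2 CPM). The 4 adult myosin heavy chains summed to 40200 CPM there and to 65910 CPM or more in the others. The part of these tissues in the level of Ncam1 was not tested.

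**Figure D2:**
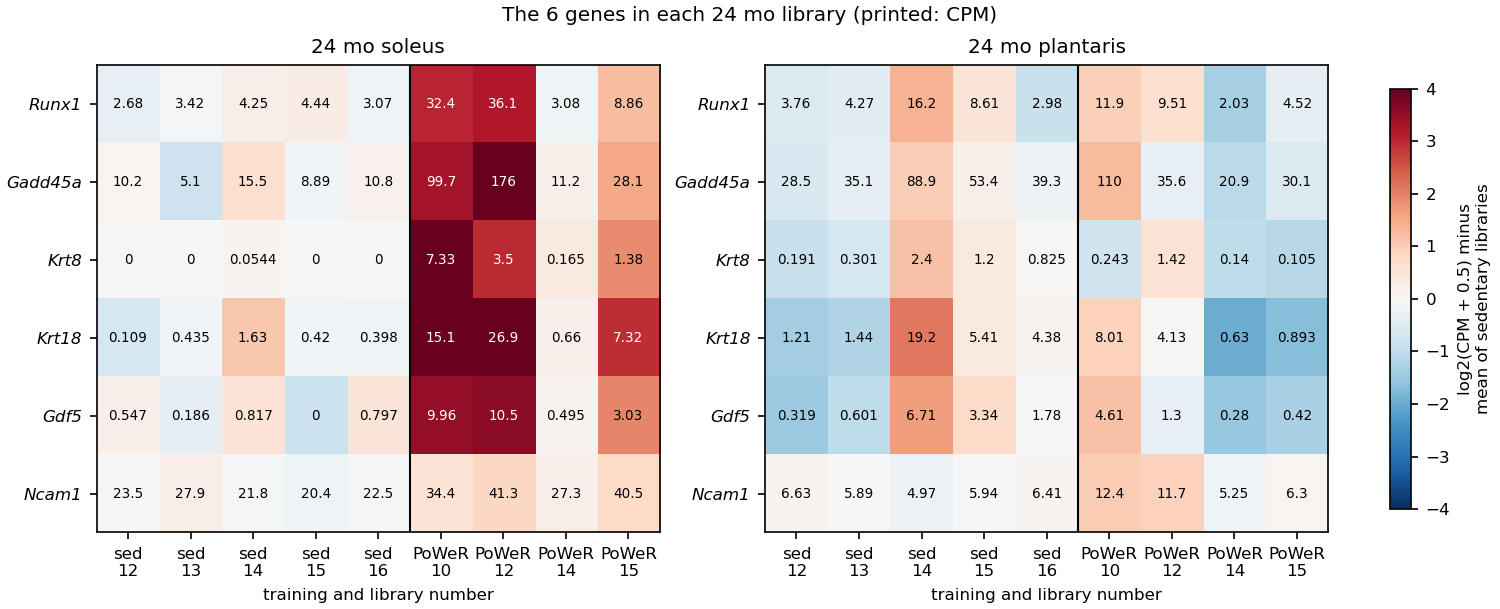
CPM (printed) of the 6 genes in each 24 mo soleus and plantaris library, coloured by log2(CPM + 0.5) minus the mean of the sedentary libraries of that muscle. PoWeR 14 is the lowest PoWeR library for all 6 genes in soleus and for all but Krt8 in plantaris. PoWeR 10 and 12 are high in soleus, and sedentary 14 is the highest control in plantaris for all genes but Ncam1.

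The 24 mo libraries carry numbers in their labels, and these numbers let the high and low libraries of the 2 muscles be set side by side. Among PoWeR libraries, number 14 was the lowest for 6 of 6 genes in soleus and for 5 of 6 in plantaris, the exception being Krt8, lowest in number 15. The highest was number 12 for 5 genes and number 10 for Krt8 in soleus, and number 10 for 5 genes and number 12 for Krt8 in plantaris. Among sedentary libraries, number 14 was the highest for Gadd45a, Krt8, Krt18 and Gdf5 in soleus, and for those 4 and Runx1 in plantaris. These counts were made after the values were seen, and the labels do not say that same-numbered soleus and plantaris libraries came from 1 mouse.

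In size, the same-numbered library did differ between muscles. Gadd45a in PoWeR 12 was 176 CPM in soleus and 35.6 CPM in plantaris, and Krt8 in PoWeR 10 was 7.33 CPM in soleus and 0.243 CPM in plantaris. Sedentary 14 had 19.2 CPM of Krt18 in plantaris and 1.63 CPM in soleus.

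In 6 mo soleus, Ncam1 rose with PoWeR and the other 5 genes were not called by edgeR. There 5.97% of all genes were called higher and 6.89% lower, so a single call among 6 genes is read against a comparison in which many genes moved. DESeq2 called 19.5% of all genes and limma 10.4% in either direction, and 28.7% had an unadjusted p under 0.05 in edgeR. Ncam1 had 17.3, 27.1, 26.1 and 21.5 CPM in PoWeR libraries 1 to 4 and 18.5, 14.7, 14.5 and 11.4 CPM in sedentary libraries 1 to 4, with an overlap of PoWeR 1 and sedentary 1. The log2 fold change was 0.68 ± 0.17 (edgeR, Benjamini-Hochberg adjusted p = 0.0144), from means of 23 ± 4.51 and 14.8 ± 2.88 CPM (SD, n = 4 each).

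The Ncam1 call was a narrow one. It was lost without PoWeR 2 (log2 fold change 0.59, edgeR adjusted p = 0.0556), without PoWeR 3 (0.61, adjusted p = 0.0523), when only the 8 libraries of 6 mo soleus were fitted (0.68, adjusted p = 0.0575) and with a term for libraries with a low share of an rRNA repeat (0.61, adjusted p = 0.0524). In the soleus fit that term marked PoWeR 3 of 6 mo alone, so it repeats the omission of PoWeR 3 and is no separate check. Over all 14 alternatives the adjusted p ran from 0.00291 to 0.0575 and the change kept its direction. The summed level of 5 satellite cell markers was 42.6 to 58.4 CPM in PoWeR and 30.8 to 43.6 CPM in sedentary 6 mo soleus. That of the 8 Schwann cell markers was 39.8 to 75.3 CPM against 54.2 to 75.2 CPM. Reads of mitochondrially encoded genes made up 10.7 to 18.5% of counts in PoWeR and 21.3 to 23.1% in sedentary libraries. The part of these differences in the change of Ncam1 was not tested.

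Gadd45a separated the groups of 6 mo soleus completely, with 9.85, 12.3, 10.4 and 11.4 CPM in PoWeR against 5.16, 6.51, 5.59 and 7.66 CPM, as did 5.94% of all genes in that direction. Its log2 fold change was 0.86 ± 0.65 (edgeR, adjusted p = 0.41) in the fit of all 17 soleus libraries, in which the spread of the 24 mo PoWeR libraries enters the error. Fitted on the 8 libraries of 6 mo soleus alone it was 0.86 ± 0.17 and was called (edgeR, adjusted p = 0.0259). Gdf5 separated them the other way, with 0, 0.0931, 0.201 and 0.105 CPM with PoWeR and 0.311, 1.49, 0.535 and 1.16 CPM in the sedentary libraries, as did 8.93% of all genes. In counts this is 8 against 58 reads, with a log2 fold change of -2.93 ± 1.09 (edgeR, adjusted p = 0.0865). DESeq2 called it (-3.06, adjusted p = 0.0285). The sign is opposite to that in 24 mo soleus, on which the genes were chosen, and the difference was not tested.

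Runx1 had 5.75, 10.4, 12.4 and 11.8 CPM in 6 mo soleus PoWeR and 5.84, 4.14, 5.98 and 5.86 CPM in sedentary libraries, with 3 of 4 PoWeR libraries above every control. The log2 fold change was 0.92 ± 0.54 (edgeR, adjusted p = 0.283) in the fit of all 17 soleus libraries. Fitted on the 8 libraries of 6 mo soleus alone it was 0.92 ± 0.24 and just missed the threshold (edgeR, adjusted p = 0.05415). The keratins were near the detection limit at 6 mo. Krt8 summed to 14 counts in PoWeR and 33 in sedentary libraries, and Krt18 to 10 and 25. Their log2 fold changes were -1.31 ± 1.03 (edgeR, adjusted p = 0.43) and -1.37 ± 1.36 (edgeR, adjusted p = 0.548).

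In the libraries labelled 6 mo plantaris, none of the 6 genes was called by edgeR, DESeq2 or limma and 0 had an unadjusted p under 0.05 in edgeR, against 0.151% of all genes called higher and 0.072% lower by edgeR. DESeq2 called 1.51% and limma 8.96% of all genes in either direction, and 12.3% had an unadjusted p under 0.05 in edgeR. 0 of 6 separated the groups, against 3.94% of genes above and 3.72% below. Runx1 had 15.2, 10.3, 6.91 and 13.3 CPM with PoWeR and 4.77, 4.32, 8.45 and 7.61 CPM in the sedentary libraries, a log2 fold change of 0.86 ± 0.55 (edgeR, adjusted p = 0.56) close in size to that in 6 mo soleus. Only sedentary 3 and 4 reached the range of the PoWeR libraries. Fitted on these 8 libraries alone, the change of Runx1 was 0.855 ± 0.27 (edgeR, adjusted p = 0.1865). Ncam1 had 23.9, 36.1, 18.4 and 22.7 CPM against 19.7, 17.6, 23.7 and 14.4 CPM, a log2 difference of 0.43 ± 0.24 (edgeR, adjusted p = 0.492). Gadd45a had 4.98 to 8.82 CPM against 3.85 to 5.61 CPM, 0.57 ± 0.49 (edgeR, adjusted p = 0.697). Gdf5 was at 0 to 0.553 CPM with PoWeR and 0.264 to 1.27 CPM in the sedentary libraries, for -1.49 ± 1.04 (edgeR, adjusted p = 0.606). Krt8 (8 against 31 counts) and Krt18 (32 against 34 counts) had log2 fold changes of -2.03 ± 1.23 (edgeR, adjusted p = 0.528) and -0.13 ± 1.16 (edgeR, adjusted p = 0.978).

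**Figure D3:**
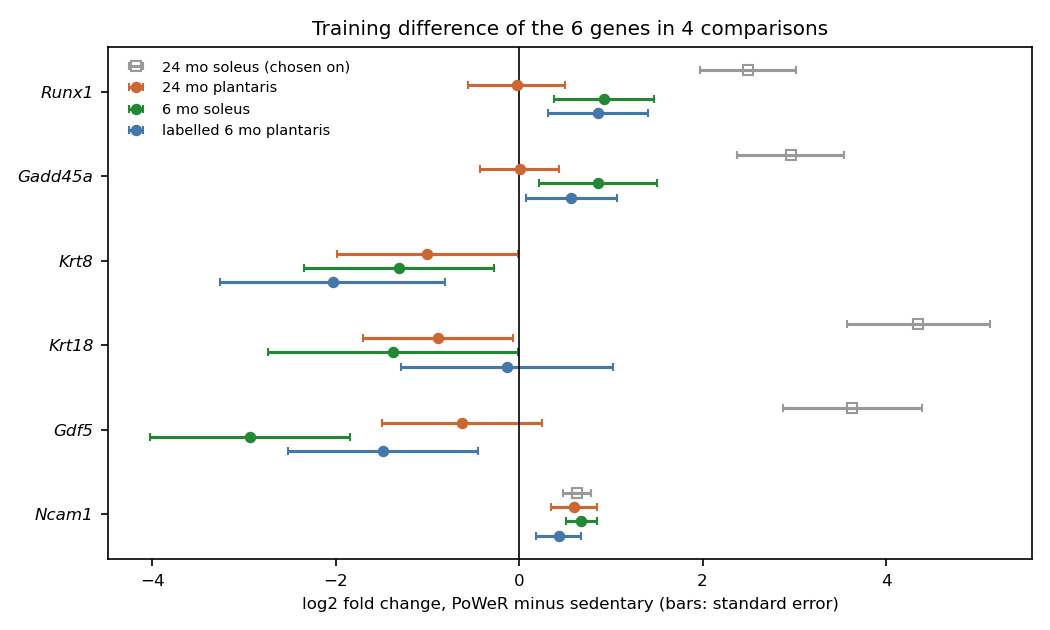
Log2 fold change, PoWeR minus sedentary, with its standard error for each gene in 4 comparisons. Grey open squares are 24 mo soleus, on which the genes were chosen (Krt8 is not drawn there because its controls hold 1 count), and filled circles are the 3 comparisons that were tested. Ncam1 lies between 0.43 and 0.68 in all 4, while Krt18 is at 4.35 in 24 mo soleus and at -0.88, -1.37 and -0.13 in the other 3.

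Across the 8 groups, 24 mo soleus PoWeR had the highest mean of each of the 6 genes. Since the genes were chosen on their rise in that group, nothing is read from this rank. Groups that were neighbours in the order of means overlapped in every case but 1. For Gadd45a the 2 groups of 24 mo plantaris (means of 49.09 CPM with PoWeR and 49.05 CPM in the sedentary libraries, with no library under 20.9 CPM) lay above 6 mo soleus PoWeR (mean 11 CPM, with no library over 12.3 CPM). These groups differ in both age and muscle, and no 6 mo libraries with the myosins of a fast muscle were at hand. Krt18 and Gdf5 also had their next highest means in 24 mo plantaris, at 6.32 and 3.42 CPM for Krt18 and 2.55 and 1.65 CPM for Gdf5 in sedentary and PoWeR libraries. In 24 mo sedentary soleus these means were 0.599 CPM for Krt18 and 0.469 CPM for Gdf5. Ncam1 had the opposite order between muscles, with its lowest means, 8.93 CPM with PoWeR and 5.97 CPM in the sedentary libraries, in 24 mo plantaris.

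How the genes varied among themselves was described by the Pearson correlation of their deviations, the log2(CPM + 0.5) of a library minus its group mean. Over all 34 libraries the 10 pairs among Runx1, Gadd45a, Krt8, Krt18 and Gdf5 had a median r of 0.76, and the 5 pairs with Ncam1 a median of 0.24. Within the 9 libraries of 24 mo soleus, on which the genes were chosen, the medians were 0.90 and 0.48. Within the 9 libraries of 24 mo plantaris they were 0.85 and 0.44, and without 24 mo soleus (25 libraries) 0.64 and 0.22. In 6 mo soleus (8 libraries) the medians were -0.12 and -0.26, and in the libraries labelled 6 mo plantaris (8 libraries) 0.06 and -0.24. Medians for the 5 genes were thus high in both 24 mo muscles and near 0 or below in the 6 mo libraries. In the latter the keratins and Gdf5 rest on few counts. The 6 mo libraries are also named by another scheme, and the profile of those labelled plantaris goes against the label. Age cannot be told apart from the set of libraries here. Points share their library and its depth, and these values carry no test.

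By the same measure, averaged over the 6 genes, 9 of the 10 most like among 12998 genes with a mean of at least 1 CPM were Atp13a3, Ces2c, Aif1l, Dars, Rb1, Dapk2, Nabp1, Slc9a7 and Cpne2. Atp13a3, a membrane ATPase, had a mean r of 0.72 over 34 libraries and 0.65 without 24 mo soleus. Ces2c, a carboxylesterase, had 0.67 and 0.59, and Aif1l, an actin-binding protein, 0.66 and 0.62. Values for the other 6 ran from 0.60 to 0.63, and from 0.41 to 0.63 without 24 mo soleus.

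Ces2c had 22.8, 10.8, 0.44 and 4.51 CPM in 24 mo soleus PoWeR 10, 12, 14 and 15 and 0 to 3.16 CPM in sedentary libraries, of which number 14 was the highest. Rb1, the retinoblastoma protein, had 45.6, 32.9, 20.6 and 26.8 CPM against 18.2 to 22.6 CPM, a narrower range. PoWeR 10 and PoWeR 12 were each above all controls for 8 of these 9 genes, PoWeR 15 for 6 and PoWeR 14 for 0, where the shares of all genes were 19.0 to 22.6% per library. These genes were ranked with 24 mo soleus included, so their order of libraries there is part of the choice.

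**Figure D4:**
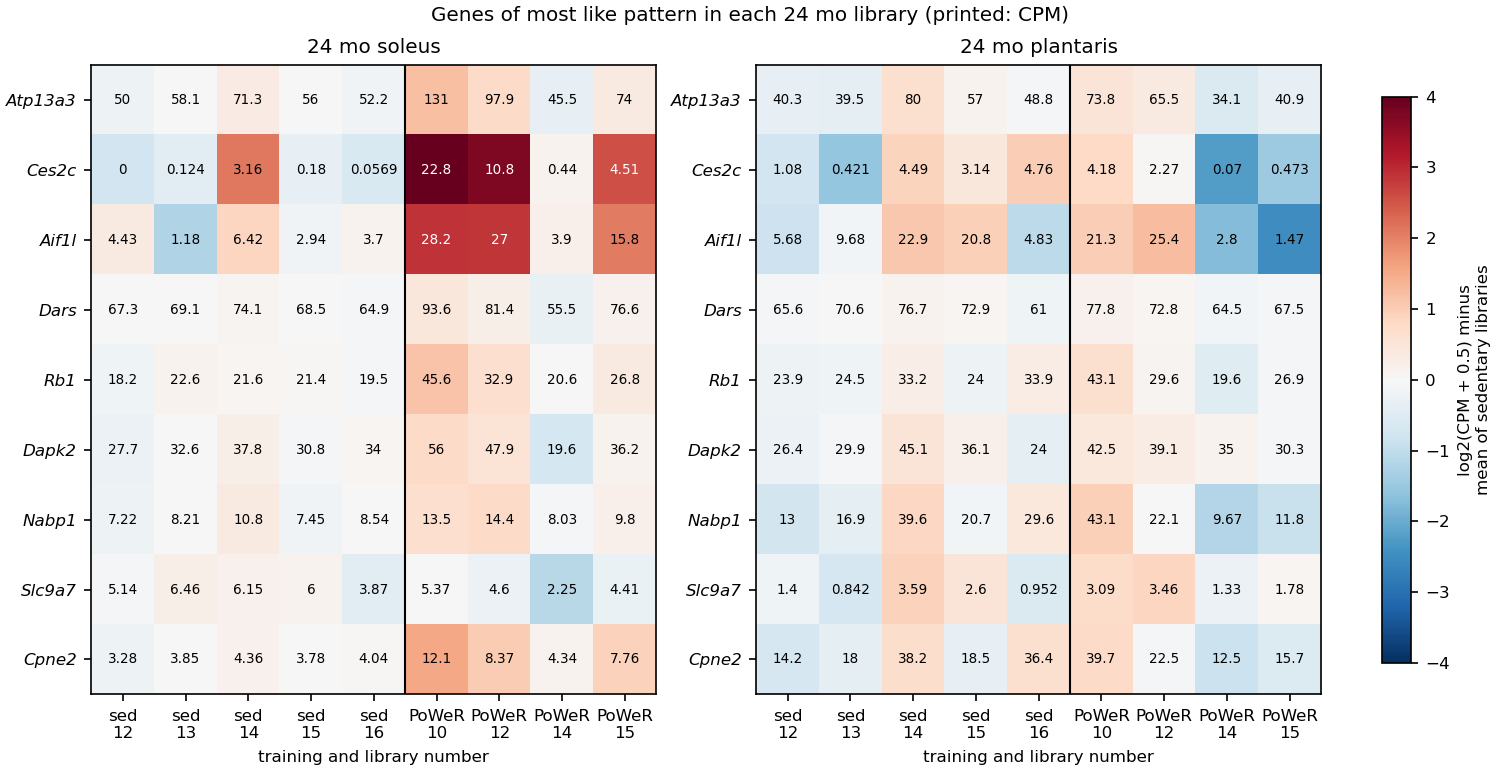
CPM (printed) of 9 genes whose deviations were among the most like those of the 6 genes, in each 24 mo library, coloured by log2(CPM + 0.5) minus the mean of that muscle's sedentary libraries. In soleus PoWeR 10 and 12 are above all controls for 8 of the 9, all but Slc9a7, and sedentary 14 is among the highest controls in plantaris.

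The label of the 6 genes as denervation-type was set beside a list of 11 denervation and synaptic receptor genes. The list sets no direction for its genes, so a rise is not taken as the expected change of each. In 24 mo soleus 2 of the 11 were called higher and 0 lower, and their median log2 fold change was 0.58, with a median of 0.00 over all genes tested. The called genes were Sln (sarcolipin, an inhibitor of the calcium pump), at 398, 390, 149 and 215 CPM in PoWeR 10, 12, 14 and 15 and 102 to 162 CPM in sedentary libraries, and Chrnb1, the beta subunit of the acetylcholine receptor. Sln had a log2 fold change of 1.22 ± 0.25 (edgeR, adjusted p = 0.0312) and Chrnb1 of 0.72 ± 0.16 (edgeR, adjusted p = 0.037). With 1 library left out the call of Sln held in 3 of 9 fits and that of Chrnb1 in 2 of 9, and the edgeR adjusted p reached 0.136 without PoWeR 12 for Sln and 0.149 without PoWeR 12 for Chrnb1. Without PoWeR 10 and 12 together the 2 changes were 0.57 (adjusted p = 0.445) and 0.68 (adjusted p = 0.297) in edgeR. By other tools, 7 of the 11 genes were called by DESeq2 and 3 by limma, and 7 had an unadjusted p under 0.05 in edgeR. Over all genes, DESeq2 called 2.86% of those it gave an adjusted p, limma called 3.49%, and 12.8% had an unadjusted p under 0.05 in edgeR.

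Chrng, Myog, Musk and Chrne of that list are named after their values were seen. Chrng, the fetal gamma subunit of the receptor, had 6.04, 2.77, 0.275 and 1.43 CPM in PoWeR 10, 12, 14 and 15 and 0.24 to 0.925 CPM in sedentary libraries. Myog, the transcription factor myogenin, had 10.6, 35.4, 8.3 and 7.38 CPM against 4.29 to 8.93 CPM. Neither was called by edgeR (adjusted p = 0.0781 for Chrng and 0.118 for Myog), and DESeq2 called both (adjusted p = 0.013 and 0.0138). Musk, the receptor kinase of the synapse, was highest in PoWeR 10 (29.2 CPM) and lowest in PoWeR 14 (9.29 CPM) among the PoWeR libraries. Only PoWeR 10 was above all controls for Musk, and PoWeR 12, 14 and 15 were not. Chrne, the adult receptor subunit, was in no PoWeR library above all controls. Of the 11 genes, 8 were above all controls in PoWeR 10, 6 in PoWeR 12, 5 in PoWeR 15 and 1 in PoWeR 14, and of all genes tested 22.6%, 20.5%, 19.0% and 21% were.

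**Figure D5:**
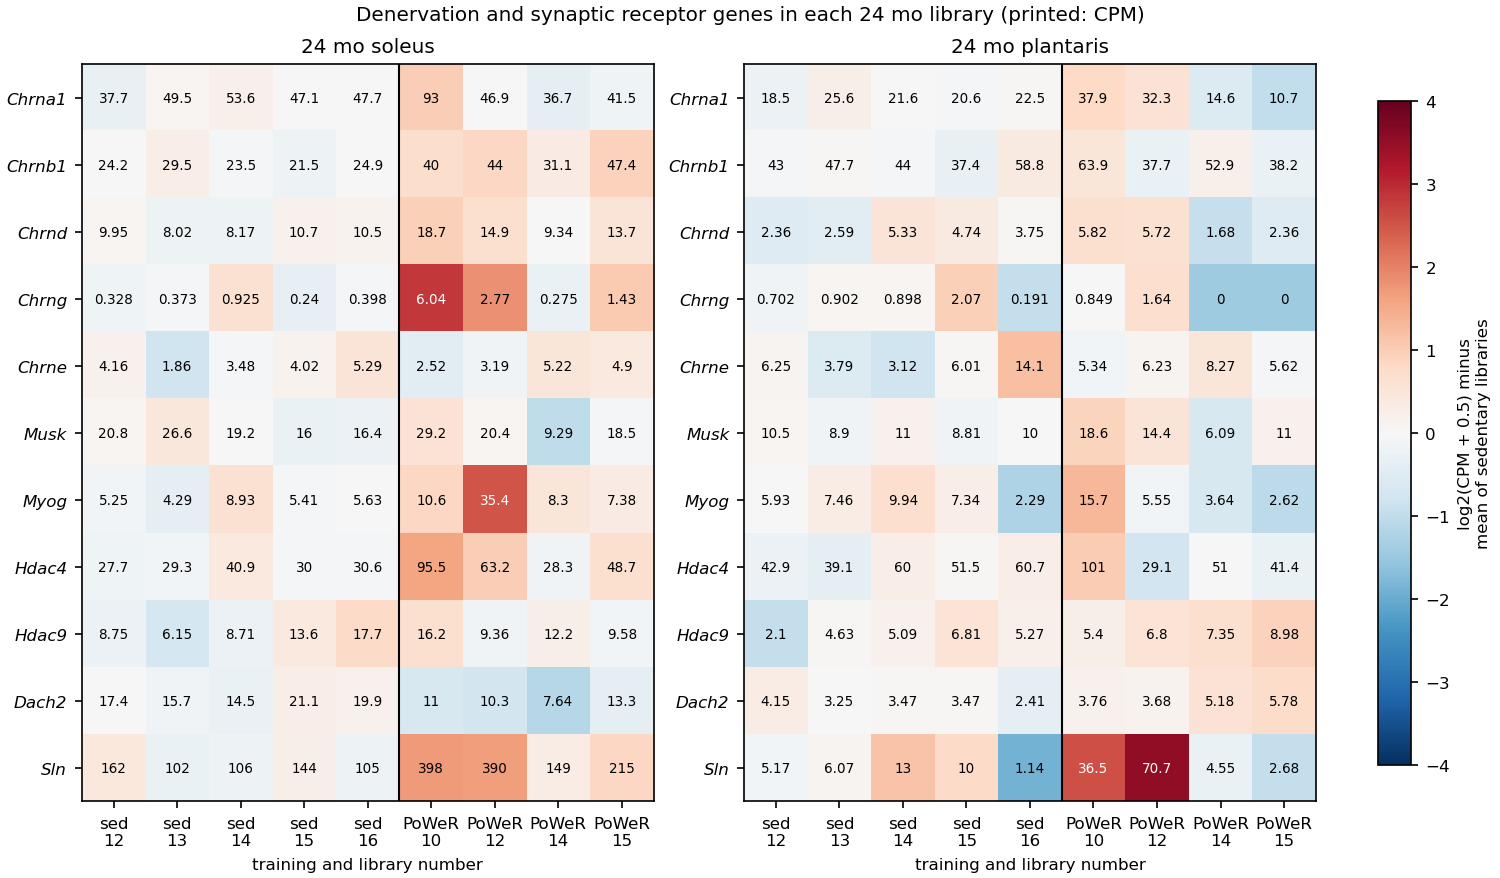
CPM (printed) of 11 denervation and synaptic receptor genes in each 24 mo library, coloured by log2(CPM + 0.5) minus the mean of that muscle's sedentary libraries. In soleus Chrng, Hdac4 and Sln are higher than all controls in PoWeR 10, 12 and 15, and Dach2 is not.

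In 24 mo plantaris 0 of the 11 denervation and synaptic receptor genes were called by edgeR, DESeq2 or limma (3 had an unadjusted p under 0.05), with a median of 0.13 (all genes 0.01). In 6 mo soleus Sln (log2 fold change 0.99 ± 0.27, edgeR adjusted p = 0.027), Musk (0.88 ± 0.26, adjusted p = 0.0361) and Chrnb1 (0.58 ± 0.18, adjusted p = 0.038) rose. Dach2, a corepressor, fell in the same muscle and age (-0.66 ± 0.20, edgeR adjusted p = 0.033). The list's median was 0.18 there (all genes 0.04), and edgeR called 5.97% of all genes higher and 6.89% lower in 6 mo soleus. Each of these 4 calls held in only 1 or 2 of 8 fits with 1 library left out, with adjusted p up to 0.0665 for Sln, 0.15 for Musk and Chrnb1 and 0.111 for Dach2. In the libraries labelled 6 mo plantaris 0 of 11 were called by edgeR, 0 by DESeq2 and 2 by limma, and 3 had an unadjusted p under 0.05 (median 0.16, all genes 0.01). Of 8 genes of neuromuscular junction assembly, 0 were called by edgeR at 24 mo in either muscle (3 at an unadjusted p under 0.05 in soleus and 2 in plantaris, with 1 call by DESeq2 and 1 by limma, both in soleus), and Lrp4, the agrin receptor, rose in 6 mo soleus (0.69 ± 0.16, edgeR adjusted p = 0.0112). Given the share of all genes called there, 1 call among 8 is not read as a result of that list.

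Among the partners of Ncam1, Nrcam, a related adhesion molecule of the immunoglobulin family, rose in 3 comparisons. In 24 mo soleus it was 6.78 ± 3.81 CPM with PoWeR and 1.12 ± 0.413 CPM without, a log2 fold change of 2.60 ± 0.40 (edgeR, adjusted p = 0.00651) that held in 9 of 9 fits with 1 library left out and not without PoWeR 10 and 12 together (1.69, adjusted p = 0.162). It rose by 3.16 ± 0.44 in 6 mo soleus (edgeR, adjusted p = 0.00149) and by 3.21 ± 0.47 in the libraries labelled 6 mo plantaris (edgeR, adjusted p = 0.0106). Fgfr1, a growth factor receptor that binds Ncam1, rose by 0.54 ± 0.13 in 6 mo soleus (edgeR, adjusted p = 0.0152) and by 0.70 ± 0.14 in the libraries labelled 6 mo plantaris (edgeR, adjusted p = 0.0371). With 1 library left out, the calls in the libraries labelled 6 mo plantaris held in 5 of 8 fits for Nrcam (edgeR adjusted p up to 0.0801) and 2 of 8 for Fgfr1 (up to 0.165). The calls in 6 mo soleus held in 8 of 8 for Nrcam and 6 of 8 for Fgfr1 (up to 0.0582). With the rRNA repeat term the calls in the libraries labelled 6 mo plantaris ended (edgeR adjusted p = 0.0745 for Nrcam and 0.173 for Fgfr1). That of Fgfr1 in 6 mo soleus also ended (edgeR adjusted p = 0.0544), where the term marked PoWeR 3 alone and so repeats its omission. The remaining 5 of 7 tested genes of that list were called by edgeR in no comparison. In 24 mo plantaris 0 of 7 were called by any of the 3 tools, and 3 had an unadjusted p under 0.05. Of all genes, edgeR called 0.469% higher in 24 mo soleus, 5.97% in 6 mo soleus and 0.151% in the libraries labelled 6 mo plantaris.

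The pathways of Gadd45a and Gdf5 held few other called genes. Calls in 6 mo soleus stand beside 5.97% of all genes called higher and 6.89% lower there by edgeR, so 1 call among 25 BMP genes is not read as a result of that list. Of 11 Gadd45 family and stress genes 0 were called in 24 mo soleus by any of the 3 tools (median -0.05, 2 at an unadjusted p under 0.05 in edgeR), and in 6 mo soleus 3 fell: Gdf15, a secreted stress signal (-2.33 ± 0.63, edgeR adjusted p = 0.022), Trib3 (-1.12 ± 0.34, adjusted p = 0.036) and Atf4, the stress transcription factor (-0.49 ± 0.13, adjusted p = 0.0182). With 1 library left out the call of Trib3 held in 3 of 8 fits (edgeR adjusted p up to 0.111), and those of Gdf15 and Atf4 in 5 of 8 each (up to 0.0805 and 0.0647). Of 25 BMP pathway genes tested in soleus, 0 were called by edgeR at 24 mo (median 0.14, 5 at an unadjusted p under 0.05), 4 by DESeq2 and 3 by limma, and Chrd, a secreted inhibitor of BMP ligands, rose at 6 mo (0.80 ± 0.25, edgeR adjusted p = 0.0414), a call that held in 2 of 8 fits with 1 library left out (adjusted p up to 0.118). The type I receptor Bmpr1b was 12.7 CPM in PoWeR and 20.4 CPM in sedentary 24 mo soleus (-0.68 ± 0.16, edgeR adjusted p = 0.0531). In 24 mo plantaris 0 genes of either list were called by any of the 3 tools, with 0 stress genes and 3 BMP genes at an unadjusted p under 0.05. In the libraries labelled 6 mo plantaris edgeR and DESeq2 called 0 of either list and limma 1 stress gene, with 1 and 3 genes at an unadjusted p under 0.05.

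For Runx1, 0 of 3 tested partners were called in any comparison by any of the 3 tools, and 1, Cbfb in 24 mo soleus, had an unadjusted p under 0.05 in edgeR. Cbfb, the subunit that Runx proteins bind DNA with, was 32 CPM in PoWeR and 26.9 CPM in sedentary 24 mo soleus (0.26 ± 0.12, edgeR adjusted p = 0.39). Of the 7 other intermediate filament genes tested, 0 were called in any comparison by any of the 3 tools, with at most 2 in a comparison at an unadjusted p under 0.05. Of 7 developmental and regenerating fibre genes tested in soleus, Myod1, a myogenic transcription factor, rose at 24 mo (1.05 ± 0.22, edgeR adjusted p = 0.0242), a call that ended in 5 of 9 fits with 1 library left out (adjusted p = 0.0929 without PoWeR 10), and Myl4, an embryonic myosin light chain, fell at 6 mo (-0.83 ± 0.23, edgeR adjusted p = 0.0254), a call that ended in 3 of 8 such fits (adjusted p up to 0.0994). Of 10 atrophy ligases and regulators 0 were called at 24 mo in either muscle by any of the 3 tools (2 at an unadjusted p under 0.05 in soleus and 1 in plantaris). In 6 mo soleus the ubiquitin ligase Fbxo32 (0.75 ± 0.15, edgeR adjusted p = 0.00622) and the transcription factors Foxo3 (0.70 ± 0.15, adjusted p = 0.00811) and Klf15 (0.67 ± 0.21, adjusted p = 0.0456) rose. With 1 library left out the calls of Fbxo32 and Foxo3 held in 8 of 8 fits, and that of Klf15 in 1 of 8 (adjusted p up to 0.169). Of all genes in 6 mo soleus, edgeR called 5.97% higher and 6.89% lower, so 1 call among 7 developmental genes is not read as a result of that list.

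Since Krt8 and Krt18 are keratins of simple epithelia, epithelial markers were read in the same libraries. The summed level of 8 such markers was 0.551 to 1.04 CPM in 24 mo soleus PoWeR and 0.373 to 1.02 CPM in the sedentary libraries, and Epcam, Krt5, Krt14, Cldn4 and Esrp1 were at 0 in all 4 PoWeR libraries. In PoWeR 12, where Krt18 was 26.9 CPM, the sum was 0.732 CPM. In 24 mo plantaris the sum was 28.6 CPM in sedentary 12 and 84.2 CPM in sedentary 13, where Krt18 was 1.21 and 1.44 CPM. In sedentary 14 of that muscle, the library with the most Krt18, it was 0.299 CPM. Krt5 (44.7 CPM) and Krt14 (33.8 CPM) made up most of the sum in sedentary 13. Of 4 mesothelial markers 1 was among the genes counted, at 0 to 0.224 CPM in 24 mo soleus PoWeR and 0 to 0.3 CPM in the sedentary libraries. The part of epithelial or mesothelial cells in the keratin levels was not tested.

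Ncam1 is also a gene of satellite and Schwann cells and Gdf5 one of developing joints, so markers of these cells were summed in 24 mo soleus. Satellite cell markers summed to 31.4 to 36.8 CPM with PoWeR and 22.3 to 34.2 CPM in the sedentary libraries, Schwann cell markers to 34.3 to 58.5 and 19.3 to 36.6 CPM, and 4 cartilage and joint markers to 30.2 to 51.3 and 25.9 to 51.7 CPM. Schwann cell markers were highest in PoWeR 14, which of the PoWeR libraries had the lowest levels of the 6 genes. The 7 macrophage markers summed to 73.4, 62, 31.6 and 47.1 CPM in PoWeR 10, 12, 14 and 15, the order of Krt8, and to 37.8 to 60.3 CPM in sedentary libraries. The part of any of these cells in the levels of the 6 genes was not tested. Mitochondrially encoded genes made up 10.6, 11.5, 10.8 and 13.4% of counts in PoWeR 10, 12, 14 and 15 and 13.1 to 14.5% in sedentary libraries, so this share was as low in PoWeR 14 as in PoWeR 10.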

How the data were processed

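The authors deposited expected counts, estimated reads per gene that are not normalized, with 25.7% of values not whole. The submitters' processing notes list mm10, Partek, DESeq2 and STAR 2.7.3a without saying what each did. Groups follow the labels. Numbers of 24 mo libraries come from the labels, and 6 mo libraries were numbered in order of deposition. The genes, gene lists and motifs were chosen with earlier results of these data known.

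Counts were rounded to whole numbers. The 17 libraries of each muscle label were fitted together with 1 mean per group in edgeR 4.0.16 (R 4.3.3), using TMM factors, filterByExpr (minimum count 10, minimum total 15), robust dispersion estimates and its quasi-likelihood F test. P-values were Benjamini-Hochberg adjusted over 14934 genes in soleus and 15280 in plantaris, with a threshold of 0.05. The fits were tested on simulated data. CPM used TMM factors over all 34 libraries. All 6 genes passed the filter in both fits, Krt8 and Krt18 through the libraries in which they were high.

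Named were the 6 genes, up to 6 called genes of each list by absolute change (where none was called, at most 2 by p), and the 10 genes of most like pattern. Of these, 1 gene, also on 1 list, is not reported here, and counts leave it out. Alternatives were DESeq2 1.42.0, limma 3.58.1 with quality weights, RLE factors, no filter, only the groups compared, the replicate block, a term for an rRNA repeat share under 0.7%, and omitted libraries. Figures used matplotlib 3.10.9.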

Additional observations from a re-analysis of the deposited data

Results flagged for a closer look

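In 48 sets of a gene in a group, 7 held 1 library far from the others of its group, and chance gives such a library in about 1 of 20 groups. That rate is not exact here, since the genes share libraries (sedentary 14 is 3 of the 7). Runx1 in 6 mo soleus sedentary 2 was low at 4.14 CPM, with the next library at 5.84 CPM. Gadd45a in 24 mo plantaris PoWeR 10 was high at 109.8 CPM, with the next at 35.6 CPM. Krt8 was high in 24 mo plantaris PoWeR 12 (1.42 CPM, next 0.243 CPM) and in PoWeR 3 of the libraries labelled 6 mo plantaris (0.327 CPM, next 0.0436 CPM). Krt8 also had its only count of the 24 mo sedentary soleus libraries in number 14 (0.0544 CPM), and with 0 in the other 4 any single count stands apart. Krt18 was high in sedentary 14 of both 24 mo muscles, at 19.2 CPM in plantaris (next 5.41 CPM) and 1.63 CPM in soleus (next 0.435 CPM).

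For 3 genes, every PoWeR library of 24 mo soleus lay above the mean of its controls and every PoWeR library of 6 mo soleus below. The difference between the training effects was not tested. The mean difference, PoWeR minus sedentary, at 24 mo minus that at 6 mo was 3.38 CPM for Krt8, 12.1 CPM for Krt18 and 6.29 CPM for Gdf5. Most of each value is the 24 mo part (3.08, 11.9 and 5.515 CPM), from the comparison on which the genes were chosen. The 6 mo parts were -0.295, -0.22 and -0.775 CPM and rest on few counts.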

How the results depend on the processing

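None of the 6 genes was called in 24 mo plantaris or in the libraries labelled 6 mo plantaris under any alternative run in which it was tested. In the latter Krt8 and Krt18 did not pass the filter with only the groups compared. In 6 mo soleus the number called was 1, and 2 with DESeq2, 0 with the rRNA repeat term and 0 to 1 with 1 library left out. With only the groups compared it was 1, Gadd45a in place of Ncam1, and Krt8, Krt18 and Gdf5 did not pass the filter and were not tested. The repeat share was under 0.7% in 1 of 4 PoWeR and 0 of 4 sedentary libraries of 6 mo soleus, and in 3 of 4 and 1 of 4 of those labelled 6 mo plantaris. Of 15 pathway genes called in 6 mo soleus, 10 lost their call with only the groups compared and 10 with that term. In soleus the term marked PoWeR 3 of 6 mo alone. Its results there are those of leaving out that library and show no effect of the repeat share as such.

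Values not past the threshold changed sign under some settings, and the cause was not tested. Gadd45a in 24 mo plantaris was -0.36 with limma, -0.00105 with only the groups compared and -0.85 with the replicate block, and Krt18 in the libraries labelled 6 mo plantaris was 0.16 with the rRNA term. With 1 library left out, 24 mo plantaris ran from -0.39 to 0.53 for Runx1, -0.75 to 0.34 for Gadd45a, -1.71 to 0.15 for Krt18 and -1.89 to 0.14 for Gdf5, and Krt18 in the libraries labelled 6 mo plantaris from -1.05 to 0.22.

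The count of all genes called was 128 in 24 mo soleus, and 378 with DESeq2, 521 with limma, 229 with only the groups compared, 15 without PoWeR 10 and 12 and 36 to 172 with 1 library left out. In 24 mo plantaris it was 4, and 116 with DESeq2, 2 with no filter, 0 with only the groups compared, 8 without sedentary 16 and PoWeR 12, and 0 to 10 with 1 library left out. In 6 mo soleus it was 1920, and 358 with only the groups compared, 620 with the rRNA term and 602 to 2545 with 1 library left out. In the libraries labelled 6 mo plantaris it was 34, and 222 with DESeq2, 1369 with limma, 87 with only the groups compared, 1 with the rRNA term and 1 to 227 with 1 library left out. With the replicate block 10 genes were called in 24 mo soleus and 1 in 24 mo plantaris. Libraries sharing a number across training were not treated as pairs in the main fit. The correlations of their deviations were -0.002, -0.08 and 0.06 in soleus and 0.09, -0.17 and -0.10 in plantaris. Only 1 of these 6 was highest with its own number. So few shared numbers cannot decide whether such libraries have something in common. Numbers at 6 mo pair nothing.

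Krt8, Krt18 and Gdf5 rest on under 100 counts per group at 6 mo, which limits the precision of their values there.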
